A study of Saccharomyces cerevisiae with 6 samples.

Results

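From 5449 yeast genes measured, 10 reductase genes were chosen by name and are described here: OYE2 and OYE3, which encode old yellow enzymes, the NADPH alcohol dehydrogenases ADH6 and ADH7, the aldehyde reductases GRE2, ARI1 and GRE3, the nitroreductase-like pair FRM2 and HBN1, and the putative reductase YML131W. Each of the 10 had 1 probe set, and all 10 are reported. The genes were proposed with results of the same comparison in view. Their differences between the groups are therefore a description, given with a standard error (SE) and without a p-value. Where the text says that 1 of these genes was called, rose or fell, that too is a description and not a test.

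The treated group was 3 cultures of Saccharomyces cerevisiae BY4743 that had received 75 µM linoleic acid hydroperoxide (LoaOOH), a dose the labels describe as arresting. The control group was 3 cultures of the same strain that had received the same volume of the solvent, methanol, and no LoaOOH. BY4743 is a diploid laboratory strain, and its auxotrophic deletions were carried by both groups. All cultures were grown in minimal medium at 30 °C to an OD600 of 1.0 and harvested 1 h after the addition, and the RNA of each was put on 1 Affymetrix Yeast Genome 2.0 array.

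Old yellow enzymes carry a flavin, FMN, and take electrons from NADPH to reduce the carbon-carbon double bond of unsaturated aldehydes and ketones. Lipid hydroperoxides such as LoaOOH break down into aldehydes of this kind. Carbonyl reductases act on the carbonyl group itself: NADPH-dependent alcohol dehydrogenases and aldehyde reductases turn an aldehyde into the less reactive alcohol. In yeast several of these genes are known targets of Yap1, the transcription factor that responds to peroxides and thiol-reactive compounds.

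Signals are values made with RMA, which corrects background, normalises arrays to a common distribution and summarises the probes of a probe set, on the log2 scale. A difference is LoaOOH minus methanol, and a fold is 2 to the power of it. Signals of different probe sets depend on their probes as well as on the message, so levels are compared between groups and not between genes. A gene is said to be called, and to have risen or fallen, where limma's fit across all 5498 probe sets gave a Benjamini-Hochberg adjusted p under 0.05. Correlations between arrays were 0.9977 to 0.9991 within a group and 0.9505 to 0.9543 between groups. URA3, deleted in this strain, had a signal of 3.37 in LoaOOH and 3.50 in methanol cultures, under the brightest of the 17 negative control probe sets (mean 5.146). LEU2, also deleted, lay just above that level at 5.64 and 5.39. The 6 genes checked that diploids repress had group means of 5.29 to 8.34, all above it, and why was not tested. Every one of the 10 reductase genes lay above that level in both groups, but FRM2 in both groups (6.22 in LoaOOH and 6.55 in methanol), and ADH7 (7.30 in LoaOOH and 6.61 in methanol) and OYE3 in methanol (7.06), lay within the range of those 6 genes. A signal above the negative controls is therefore not taken to show that a message was present.

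Of the 10 genes 9 rose and 1, FRM2, fell. Of all probe sets tested, 78.7% were called, 36.8% higher and 41.9% lower, and since this comparison was in view when the genes were chosen, nothing is read from the count. OYE3 rose 19.3-fold and HBN1 5.13-fold, YML131W and ADH6 rose by 3.06-fold and 2.49-fold, and the other 5 rises were under 2-fold. Thus 4 of the 10 genes were at least 2-fold higher, as were 5.02% of all probe sets. The median log2 difference of the 10 genes was 0.83, and that of all probe sets tested was -0.034. The arrays of the groups did not overlap for any of the 10 genes, with LoaOOH above methanol in 9 and below it in 1. The same held for 81.1% of all probe sets, 38.1% above and 43.0% below.

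These directions and folds are relative to the typical message. The 36 poly-A spike-in probe sets are designed to detect bacterial messages added to the RNA. They had array means of 6.79 to 7.04 in the LoaOOH arrays and 7.33 to 7.63 in the methanol arrays. These means lie within the range of the 6 genes that diploids repress (5.29 to 8.34). Whether they measure added message above background was not tested, and the spike-in scaling carries that limit. Scaling to them raises every log2 difference by 0.518, so that the median of all probe sets is 0.484, with 65.9% called higher and 7.68% lower. With that scaling the same 9 genes were called higher and FRM2 was not called, at a difference of 0.19 in place of -0.33. GRE2, ADH7, OYE2 and ARI1 were then 2.79-fold, 2.31-fold, 2.10-fold and 2.01-fold higher. The share of all probe sets at 2-fold there was not counted. All probe sets share the same shift, and no SE of it was computed. Calls in the spike-in scaling all rest on that shift, and its error is common to all genes.

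**Figure D1:**
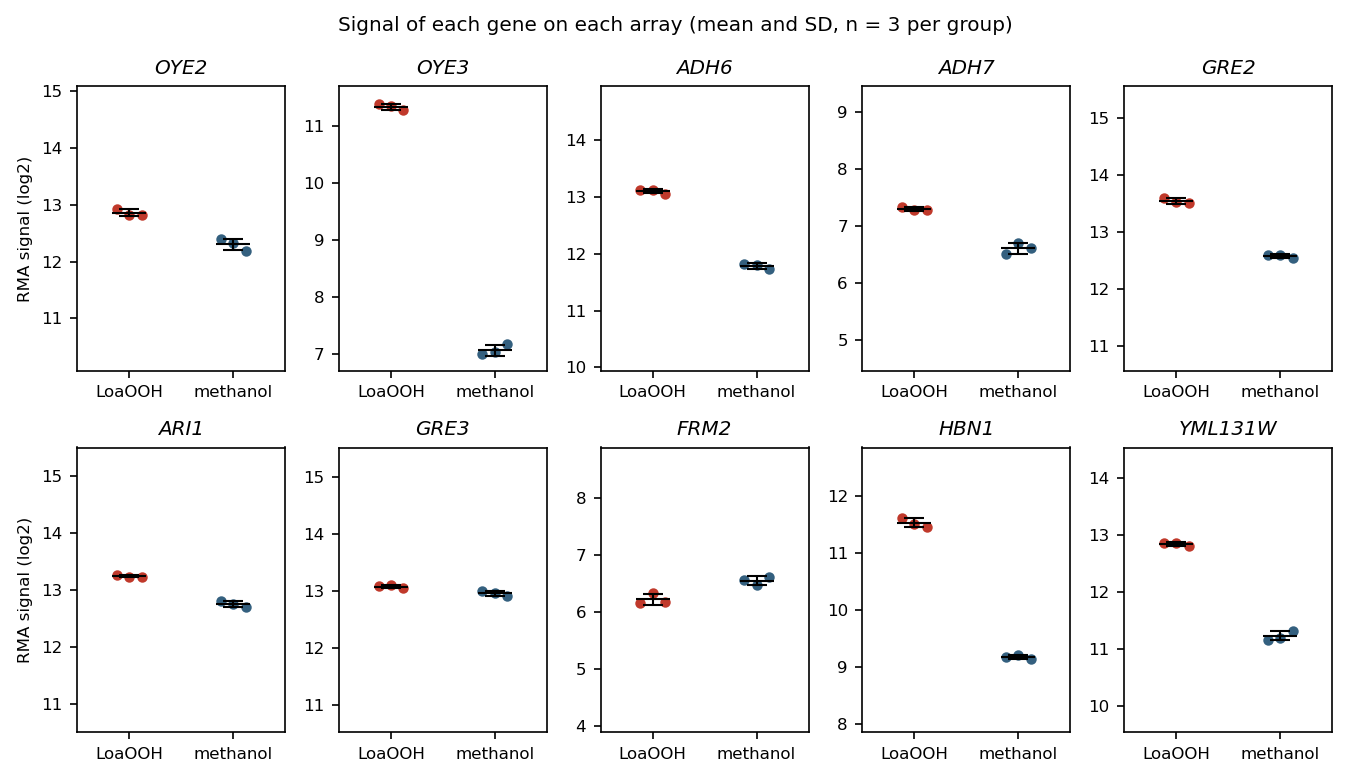
RMA signal (log2, vertical axis) of each of the 10 genes on each of the 6 arrays, with the LoaOOH arrays left of the methanol arrays in every panel. Points are arrays, and bars are the mean and SD of 3 arrays; every panel spans the same 5 log2 units, so heights can be compared. OYE3 has a gap of 4.10 between its groups and GRE3 one of 0.06.

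The old yellow enzymes differed in the size of their change. OYE3 had signals of 11.38, 11.34 and 11.28 in the LoaOOH cultures, against 6.99, 7.02 and 7.17 in the methanol cultures. All 3 LoaOOH arrays were high and all 3 methanol arrays low, with no array between them. The log2 difference was 4.27 (SE 0.0577), the second largest rise of the 5498 probe sets, and 4.79 with spike-in scaling. In methanol OYE3 was a dim probe set, while in LoaOOH it stood above the median of the array.

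OYE2, the isoform regarded as the main old yellow enzyme of growing cells, was bright in both groups. Its signals were 12.93, 12.81 and 12.82 in LoaOOH cultures and 12.40, 12.33 and 12.19 in methanol cultures. The lowest LoaOOH array lay 0.41 above the highest methanol array. OYE2 averaged 12.86 ± 0.0679 in LoaOOH and 12.30 ± 0.102 in methanol (SD, n = 3 each), a log2 difference of 0.55 (SE 0.0614) or 1.46-fold. The change of OYE3 exceeded that of OYE2 by 3.72 on the log2 scale (SE 0.118).

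Of the alcohol dehydrogenases, ADH6 encodes an NADPH enzyme with a wide range of aldehyde substrates, cinnamaldehyde among them, and ADH7 encodes its close relative. ADH6 had signals of 13.12, 13.11 and 13.05 in LoaOOH cultures, against 11.82, 11.79 and 11.72 in methanol cultures. The groups were 1.23 apart, and the log2 difference was 1.32 (SE 0.0457). ADH7 was dim in both groups, with 7.34, 7.28 and 7.28 in LoaOOH and 6.51, 6.70 and 6.62 in methanol. It rose by 0.69 on the log2 scale (SE 0.0552), or 1.62-fold, which is 0.63 less than ADH6 (SE 0.0744). YML131W belongs to the same medium-chain fold and is a putative oxidoreductase whose substrate is not settled. It had signals of 12.86, 12.86 and 12.81 in LoaOOH cultures and 11.16, 11.20 and 11.31 in methanol cultures. Its groups lay 1.49 apart, with a log2 difference of 1.61 (SE 0.0503), the third largest of the 10.

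GRE2 and ARI1 encode related NADPH reductases. Gre2 reduces methylglyoxal and 3-methylbutanal, and Ari1 reduces aldehydes such as furfural. GRE2 had signals of 13.59, 13.52 and 13.50 in LoaOOH cultures, against 12.60, 12.59 and 12.54 in methanol cultures. ARI1 had 13.26, 13.22 and 13.23 in LoaOOH and 12.81, 12.75 and 12.69 in methanol. Both were bright throughout, and in both every LoaOOH array was above every methanol array. GRE2 rose by 0.96 (SE 0.0450) and ARI1 by 0.49 (SE 0.0457) on the log2 scale, a gap of 0.47 between the changes (SE 0.0216).

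GRE3, the aldose reductase of the aldo-keto reductase family, had the smallest rise. Its signals were 13.09, 13.10 and 13.06 in LoaOOH cultures and 13.00, 12.96 and 12.92 in methanol cultures. The groups were only 0.06 apart. The log2 difference was 0.12 (SE 0.0421), or 1.09-fold. GRE3 was not called without LoaOOH replicate 1 (0.11), without LoaOOH replicate 2 (0.11), without methanol replicate 2 (0.12) or without methanol replicate 3 (0.10). It was not called after quantile normalisation of the deposited values either (0.01), so its direction is not firm. GRE3, GRE2, ARI1 and OYE2 lay at percentiles 89.6, 89.9, 89.3 and 85.2 of mean signal. ADH6 and YML131W, at percentiles 83.6 and 78.5, were bright too and rose 2.49-fold and 3.06-fold. Differences of either sign were smaller among bright probe sets. Their median size was 0.289 in the brightest 25% of probe sets and 0.386 in the dimmest 25%. The part of brightness in the differences of these genes was not tested.

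FRM2 and HBN1 encode proteins related to bacterial nitroreductases, and they are next to each other in the yeast gene table of assembly R64. HBN1 had signals of 11.62, 11.51 and 11.46 in LoaOOH cultures, against 9.18, 9.20 and 9.14 in methanol cultures. The 2.26 between the groups was the widest gap after that of OYE3, and the log2 difference was 2.36 (SE 0.0516). FRM2 had signals of 6.16, 6.33 and 6.17 in LoaOOH and 6.56, 6.47 and 6.62 in methanol. Its LoaOOH arrays were all below its methanol arrays, by 0.13 at the nearest. The log2 difference of FRM2 was -0.33 (SE 0.0624) in the deposited scaling and 0.19, not called, in the spike-in scaling. The change of HBN1 exceeded that of its neighbour by 2.69 (SE 0.104), a gap that a shift of whole arrays leaves as it is. FRM2 was the dimmest of the 10 probe sets, at percentile 4.78 of mean signal.

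**Figure D2:**
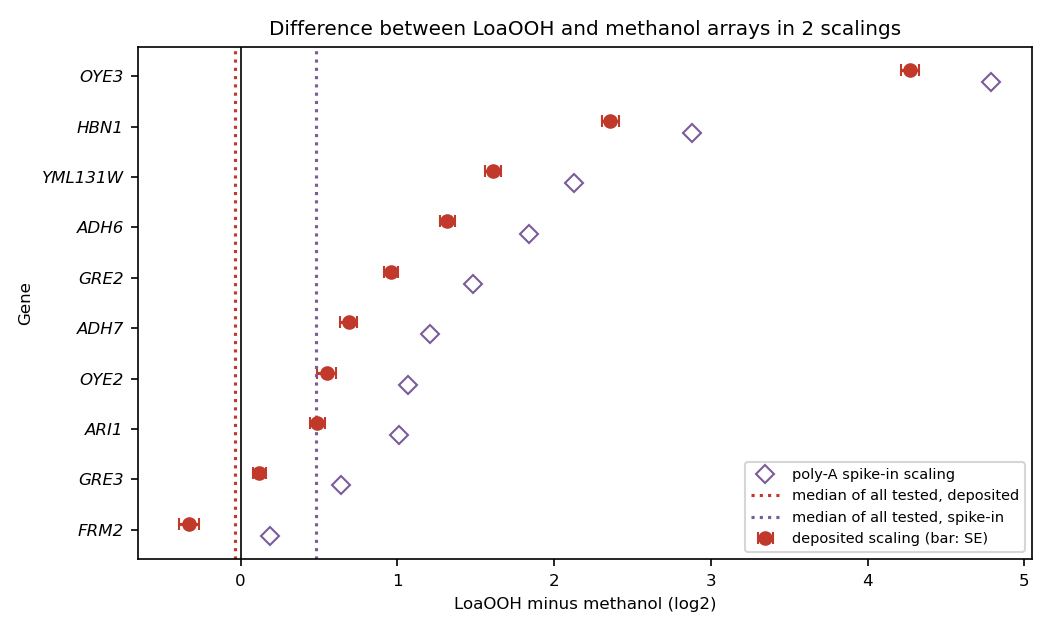
Log2 difference (LoaOOH minus methanol, horizontal axis) of the 10 genes, ordered by size, in the deposited scaling (filled circles, bars are the SE) and scaled to the poly-A spike-ins (open diamonds). Dotted lines are the medians of all 5498 probe sets, -0.034 deposited and 0.484 spike-in scaled. FRM2 changes sign between the scalings, and the other 9 genes are above 0 in both.

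The order of the changes, largest first, was OYE3, HBN1, YML131W, ADH6, GRE2, ADH7, OYE2, ARI1, GRE3 and FRM2. This order is a description of these arrays, and no place in it was tested. The smallest steps, both under 2 SE, were 0.14 between ADH7 and OYE2 (SE 0.0984) and 0.06 between OYE2 and ARI1 (SE 0.0370). ADH6 stood 0.36 above GRE2 (SE 0.0215) and 0.30 below YML131W (SE 0.0740).

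Replicate spread was small beside most of these changes, with SDs within a group between 0.0208 and 0.102. LoaOOH replicate 1 was the highest of its group for 8 of the 10 genes, as for 39.2% of all probe sets. LoaOOH replicate 3 was the lowest for 6 of the 10, as for 32.6% of all probe sets. Leaving out any 1 array kept OYE3 between 4.23 and 4.32, HBN1 between 2.31 and 2.39, and OYE2 between 0.50 and 0.60.

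**Figure D3:**
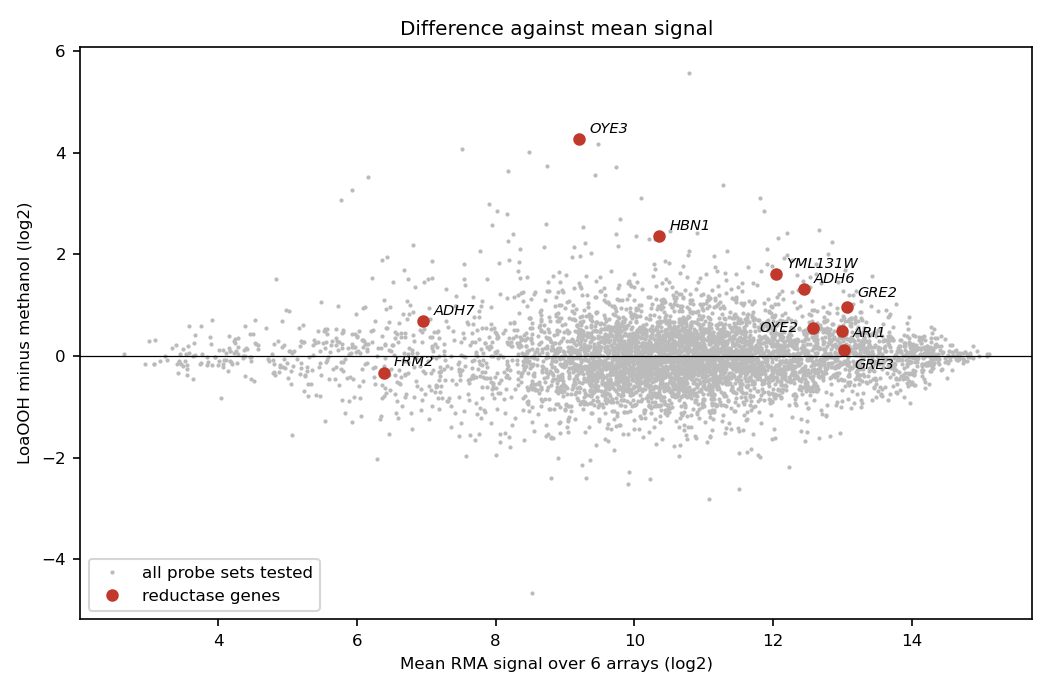
Log2 difference (LoaOOH minus methanol, vertical axis) against mean RMA signal over the 6 arrays (log2, horizontal axis) for all 5498 probe sets (grey) and the 10 reductase genes (red). OYE3 at 4.27 and HBN1 at 2.36 lie at the upper edge of the cloud. YML131W, ADH6, GRE2, OYE2, ARI1 and GRE3 lie toward its bright end with differences of 1.61, 1.32, 0.96, 0.55, 0.49 and 0.12.

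The genes most like OYE3 and OYE2 were found by the Euclidean distance over the 6 arrays, with every gene centred on its methanol mean. Nearest to OYE3 were SRX1, the sulfiredoxin (distance 0.272), YHK8, a presumed drug transporter (0.428), and HMX1, the haem oxygenase (0.548). SRX1 averaged 11.57 in LoaOOH and 7.39 in methanol. Only 2 genes lay within 0.5 of OYE3, while 996 lay within 0.5 of OYE2. The 3 nearest to OYE2 were THP1 (0.0518), YJL107C (0.0640) and NAB2 (0.0686), whose log2 differences were 0.54, 0.52 and 0.56. Many genes thus had a change close in size to that of OYE2, and few had one close to that of OYE3. The measure follows the size of the change above all, so these counts mostly restate it, and that size was in view when the genes were chosen.

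Relatives by fold did not all move the way of the 10 genes. All 5 other genes listed for the aldo-keto reductase family of GRE3 fell (median -0.36), where 41.9% of all probe sets were called lower. The list was written by hand and need not hold the whole family. YJR096W fell by 0.89 (SE 0.0616) and GCY1, a glycerol dehydrogenase, fell by 0.85 (SE 0.0478) on the log2 scale. In the spike-in scaling the median of these 5 turned to 0.16, with 1 called higher and 2 lower. Both genes listed as homologues of GRE2 and ARI1 rose: YGL039W by 0.87 (SE 0.0417) and YDR541C by 0.18 (SE 0.0504).

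Of 14 medium-chain and alcohol dehydrogenases, the fold of ADH6, ADH7 and YML131W together with the unrelated ADH4, 12 rose and 2 fell (median 0.51). YLR460C rose by 2.39 (SE 0.0944) and YCR102C by 2.10 (SE 0.0463). Both are putative reductases. Neither of their probe sets is of the kinds marked as able to cross-hybridise. ADH4 and ETR1, the mitochondrial 2-enoyl reductase, differed by -0.78 (SE 0.0521) and -0.77 (SE 0.0422). Neither was called in the spike-in scaling (-0.26 and -0.25). Of 5 quinone reductases and flavodoxin-like proteins, 2 rose, 2 fell and 1 was not called (median -0.05, and 0.47 in the spike-in scaling). ZTA1, a quinone reductase, rose by 0.64 (SE 0.0475) and YCP4 by 0.27 (SE 0.0435), while RFS1 fell by 0.97 (SE 0.0418). LOT6, an FMN-dependent quinone reductase, was lower in the deposited scaling (-0.27, SE 0.0524) and at 0.25, not called, in the spike-in scaling.

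Cofactor levels were not measured, and only the messages of genes listed for the supply of these cofactors are given. Of 17 genes for NADPH supply, 11 rose, 3 fell and 3 were not called (median 0.34). The largest rises were ALD5, a mitochondrial aldehyde dehydrogenase (1.93, SE 0.0451), and MAE1, the malic enzyme (1.12, SE 0.0551). GND2, the minor 6-phosphogluconate dehydrogenase, and YEF1, an NADH kinase, were lower (-0.66, SE 0.0767, and -0.65, SE 0.0469). Both lost their call in the spike-in scaling, where 15 of the 17 were higher and 0 lower.

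Of 9 genes of flavin synthesis and uptake, 5 rose, 3 fell and 1 was not called (median 0.18). RIB3 and RIB1, which act on the branches that feed riboflavin, rose by 1.28 (SE 0.0471) and 0.75 (SE 0.0451). MCH5, the riboflavin transporter, and FAD1, which turns FMN into FAD, were lower at -0.66 (SE 0.0520) and -0.63 (SE 0.0469). In the spike-in scaling neither was called, and 7 of the 9 were higher and 0 lower.

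Of 25 genes that were listed by hand as Yap1-responsive, none of them among the 10, 14 rose, 6 fell and 5 were not called. Their median was 0.22, and 0.74 in the spike-in scaling, with 21 higher and 1 lower. Whether Yap1 acted on any of these genes was not tested. SRX1 rose by 4.18 (SE 0.0587) and CTA1, the peroxisomal catalase, by 2.99 (SE 0.0844). CTT1, the cytosolic catalase, fell by 0.92 (SE 0.0470). MCH5, given above with flavin synthesis, is also in this list and was lower. ZWF1, TAL1, LOT6, MCH5 and ZTA1 each stand in more than 1 of the lists, so the list counts are not independent. Of 12 regulators reported for these genes or for oxidant defence, 10 rose, 0 fell and 2 were not called (median 0.49). CAD1, a relative of Yap1, rose by 1.16 (SE 0.0418) and YRR1, a drug-resistance regulator, by 1.00 (SE 0.0521). The 2 regulators not called, named after their values were seen, were HYR1 (0.10), the peroxide sensor upstream of Yap1, and STB5 (0.08), a regulator of NADPH-producing genes, and both were called higher in the spike-in scaling. In the spike-in scaling the medium-chain list had 12 higher and 0 lower, and the quinone reductases had 3 higher and 1 lower. Set beside these list counts, the shares of all probe sets were 36.8% called higher and 41.9% lower in the deposited scaling, and 65.9% higher and 7.68% lower in the spike-in scaling.

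**Figure D4:**
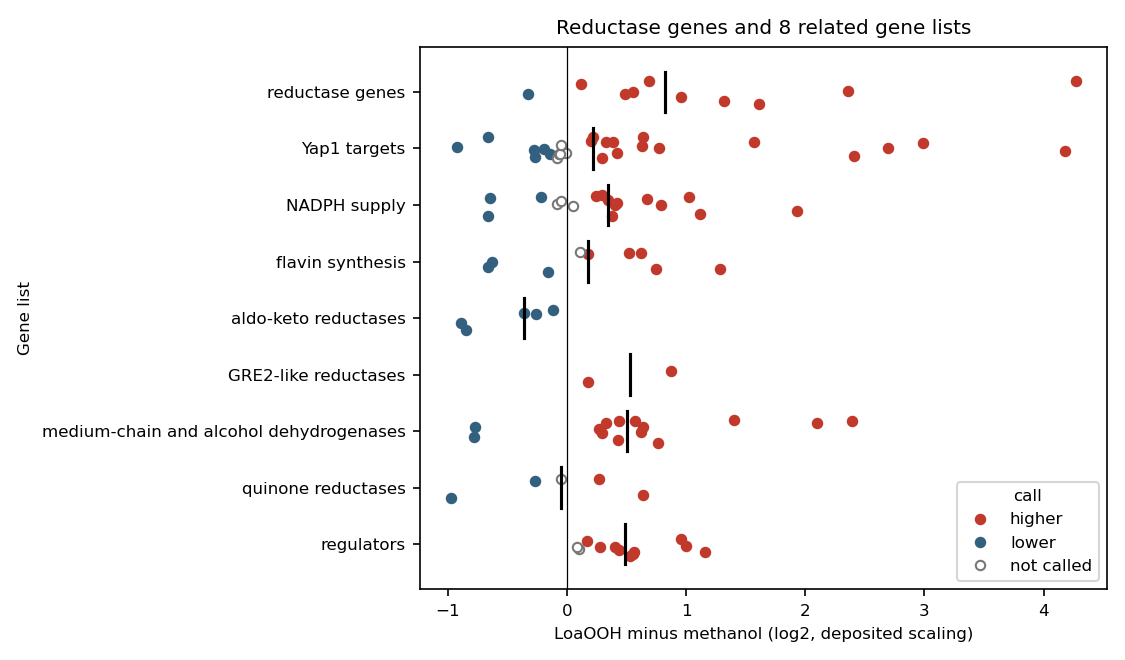
Log2 difference (LoaOOH minus methanol, deposited scaling, horizontal axis) of the 10 reductase genes and of the measured genes of 8 related lists. Points are genes, red for called higher, blue for called lower and open for not called, and black bars are list medians, from 0.83 for the reductase genes to -0.36 for the aldo-keto reductases.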

How the data were processed

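The deposited table gives log2 values of 5900 probe sets on 6 arrays. Per the submitters' processing notes, which name RMA and Partek without versions, the authors made them with RMA; no source used here gives a genome build or probe mask. RMA's quantile normalisation hides a change shared by most messages. Array medians lay between 10.588 and 10.628. The number of arrays limits the precision; the median SE of a log2 difference was 0.0527. The 218 probe sets without a gene in the platform annotation and the 184 control probe sets were left out, and 5498 were tested. Symbols came from the RefSeq gene table of assembly R64.

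Groups and replicate numbers came from the titles. The labels describe separate cultures, and p-values measure the spread between these. LoaOOH was compared with methanol with limma (version 3.58.1, R 4.3.3), using lmFit and eBayes with no covariate, two-sided. The members, the lists and the naming rule were chosen with earlier results of these data known. The rule named all 10 members, up to 2 called genes of each list in each direction with the largest difference, and the 3 genes nearest to OYE2 and to OYE3. Members are not counted in the lists, and a gene with several probe sets took the brightest. In simulated arrays of this comparison (5498 probe sets), 72% of 50 changes of 0.25, 98% of 50 of 0.5 and 100% of 50 each of 1 and 2 were recovered, and 10 of 5298 unchanged probe sets were called. The simulated noise was independent between probe sets and most of them were unchanged, whereas 78.7% were called in the real arrays. These rates check the fit and need not hold for the real arrays. Protein alignments and promoter motif searches were planned and not analysed here.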

Additional observations from a re-analysis of the deposited data

How the results depend on the processing

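Over 18 alternatives, 166 of the values of the 10 genes kept their direction and call, 10 lost the call and 1 reversed. The reversal was FRM2 in the spike-in scaling (0.19). LOT6 reversed there too (0.25). The genes called lower numbered 0 in the spike-in scaling, with treat against a log2 difference of 0.5, and without the dimmest 25% of probe sets, which removes FRM2, ADH7 and OYE3. Treat called 1221 probe sets, against 4327, because it asks for a larger difference. Of 16 list counts, 7 moved by over 1.5 times in the spike-in scaling, 11 with treat, 2 without the dimmest 25% and 1 at an adjusted p under 0.01. With treat 5 of 17 genes for NADPH supply and 5 of 14 medium-chain and alcohol dehydrogenases were called higher. So were 6 of 25 genes listed as Yap1-responsive and 3 of 12 regulators. The 2 homologues of GRE2 gave 1 higher at an adjusted p under 0.01. Leaving out 1 array at a time gave 8 to 9 genes called higher, 1 called lower and 4053 to 4279 probe sets called. GRE3 lost its call under 7 alternatives. Same-numbered arrays deviated together at 0.31, 0.049 and 0.258, which does not show that the numbers pair the cultures; LoaOOH replicate 2 correlated best with methanol replicate 3 (0.133). With the replicate number as a block, 4453 probe sets, 9 genes higher and 1 lower were called. FRM2 and ADH7 are dim, with SEs of 0.0624 and 0.0552, where the SEs of the 10 genes ran from 0.0421 to 0.0624. Whether dimness limits the change seen in them was not tested.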

Other observations

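Of 16 measured genes that flank the 10 reductase genes in the gene table and are not among them, 5 rose, 7 fell and 4 were not called, near the shares of all probe sets (36.8% called higher and 41.9% lower). In the spike-in scaling 9 were called higher, 2 lower and 5 not called, where the shares of all probe sets were 65.9% higher and 7.68% lower. The 4 given here were chosen after their values were seen. STB5, which lies beside OYE2, averaged 8.89 ± 0.0533 in LoaOOH and 8.81 ± 0.0529 in methanol (SD, n = 3 each) and was not called. FET4, the low-affinity iron transporter gene beside ADH6, fell by 1.04 on the log2 scale (SE 0.0440). ERO1, the endoplasmic reticulum oxidase gene beside YML131W, was lower by a log2 difference of -0.62 (SE 0.0435), and -0.10, not called, in the spike-in scaling. AGP1, the amino acid permease gene beside FRM2, fell by 0.86 (SE 0.0450), and HBN1, on the other side of FRM2, is the gene that rose 5.13-fold.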
